A study of Mus musculus with 2 samples.

Results

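Kruppel-like factors (KLFs) are transcription factors that carry a run of zinc fingers at their C-terminal end and bind CACCC and GC-rich boxes in promoters. The 10 genes Klf2, Klf3, Klf4, Klf5, Klf6, Klf7, Klf9, Klf10, Klf13 and Klf15 were taken by their symbols from the deposited gene tables of a mouse study, and all 10 were found among 17431 genes with a read in either library. RNA had been sequenced from 1 library of skin-derived precursors (SKPs) and 1 library of dermal fibroblasts, both from BALB/c mouse dermis. SKPs are dermal precursor cells that grow under mitogens. They came from mice at postnatal day 4 and were kept in DMEM/F12 with 40 ng/ml FGF2, 20 ng/ml EGF and 2% B27, while fibroblasts came from mice at postnatal day 3 and were kept in DMEM with 10% fetal bovine serum. Age, medium and cell type therefore cannot be told apart, the sources used here do not give the number of animals behind each culture, and with 1 library per group no difference below has a replicate check or a test.

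Members of the family act in opposite ways on the same DNA boxes. Klf3 is a repressor that recruits the corepressor CtBP. Klf2, Klf4, Klf5, Klf6 and Klf7 are mostly activators, and Klf9, Klf10 and Klf13 bind the corepressor Sin3a, while Klf15 lies outside these groups. In skin, Klf4 is known for forming the epidermal barrier, and in mesenchymal cells several members steer fat cell differentiation. Klf2, Klf4, Klf6 and Klf10 are also induced quickly when cells meet growth factors, cytokines or mechanical force.

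Promoter sequences, from 250 bases before to 50 bases after the gene start, were at hand for 8 of the 10 members in the RefSeq table of build GRCm38.p6, and Klf5 and Klf10 were not in that table. Those of Klf2, Klf9 and Klf4 are printed because Klf2 and Klf9 lay past the 2-fold limit in opposite directions and Klf4 is the close relative of Klf2 that leaned the other way. They lie at chr8:72318812-72319111 on the plus strand, chr19:23140976-23141275 on the plus strand and chr4:55532426-55532725 on the minus strand, and are given 5′ to 3′ on the gene's strand. Capitals mark CACCC boxes (CACCC) and GC boxes (GGGCGG) found on either strand.
Klf2: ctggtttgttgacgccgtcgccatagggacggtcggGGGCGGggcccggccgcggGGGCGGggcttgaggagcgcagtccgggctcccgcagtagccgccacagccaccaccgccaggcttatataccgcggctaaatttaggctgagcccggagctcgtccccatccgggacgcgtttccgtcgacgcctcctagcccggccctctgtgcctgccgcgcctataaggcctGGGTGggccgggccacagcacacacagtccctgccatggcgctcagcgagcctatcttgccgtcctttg
Klf9: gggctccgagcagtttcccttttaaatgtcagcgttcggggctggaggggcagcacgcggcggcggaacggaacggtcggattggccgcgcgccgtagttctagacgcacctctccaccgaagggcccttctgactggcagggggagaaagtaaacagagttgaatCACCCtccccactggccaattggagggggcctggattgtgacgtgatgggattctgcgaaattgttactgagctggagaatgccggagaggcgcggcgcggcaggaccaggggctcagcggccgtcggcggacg
Klf4: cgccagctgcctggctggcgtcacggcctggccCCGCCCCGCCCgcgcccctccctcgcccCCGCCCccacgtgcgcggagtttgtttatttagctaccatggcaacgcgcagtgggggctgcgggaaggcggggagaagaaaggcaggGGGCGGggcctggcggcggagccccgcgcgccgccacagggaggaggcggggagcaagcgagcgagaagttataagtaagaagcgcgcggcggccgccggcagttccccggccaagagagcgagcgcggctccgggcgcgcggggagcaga
The Klf2 promoter held 1 CACCC box and 2 GC boxes, the Klf9 promoter 1 CACCC box and 0 GC boxes, and the Klf4 promoter 0 CACCC boxes and 4 GC boxes, of which a pair overlaps. In the printed promoters no CACCC box overlapped a GC box. Over the 8 members, 6 promoters held a CACCC box and 7 held a GC box, against 57.5% and 35.7% of all 32851 promoters of the same length in the table. The CCAAT box (CCAAT) was found in 4 of the 8, those of Klf6, Klf9, Klf13 and Klf15, against 37.4% of all promoters, and the core of the cyclic AMP response element (TGACG) in 6 of the 8, against 20.8%. No member promoter held TATAAA (13.6% of all promoters), the glucocorticoid receptor core AGAACA (19.0%) or the CArG box of serum response factor (1.63%). The letters TATTTTTA, a single spelling of the MEF2 site (2.72%), were absent too, and other spellings of that site were not searched. The printed Klf2 promoter holds ctaaatttag, another spelling of the MEF2 site, which a search for TATTTTTA could not find. The Klf2 window is therefore not shown to lack a MEF2 site. These absences say only that these letters are not in these windows. All motifs were searched on both strands, and a match is a description of the letters. The GC content of the 8 promoters ran from 58.3% for Klf7 to 76.7% for Klf3, with a median of 52.7% over all promoters.

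The SKP library held 22981183 reads, of which 85.13% were mapped and 82.5% were counted in the gene table. The fibroblast library held 23374716 reads, of which 81.65% were mapped and 78.7% were counted. Levels are the deposited RPKM, read counts divided by the length of the gene and the counted reads of its library. In a transcript of 1 kb a single read stands for 0.0528 RPKM in SKPs and 0.0543 RPKM in fibroblasts. Intervals in parentheses are 95% exact intervals from the read counts, and they cover counting error only. The SKP marker gene Nes stood at 28.2 RPKM in SKPs and 6.30 RPKM in fibroblasts, while Sox10, also on the SKP list, stood at 0.953 and 4.05 RPKM. The fibroblast marker Col1a1 was abundant in both libraries, at 2161 RPKM in SKPs and 4474 RPKM in fibroblasts. Over 10 SKP markers 4 were higher in SKPs by 2-fold or more and 1 lower, and over 10 dermal fibroblast markers 3 were higher there and 2 lower, so the fibroblast list did not separate the libraries by its label. Markers of other skin cell types were present in the SKP library, with a summed level of 534 RPKM in SKPs and 346 RPKM in fibroblasts for 10 adipocyte markers, 35.2 and 3.85 RPKM for 10 keratinocyte markers, 83.2 and 0.241 RPKM for 8 mast cell markers, 27.2 and 4.58 RPKM for 9 leukocyte markers with a read, and 9.56 and 5.14 RPKM for 10 endothelial markers. Lipoprotein lipase, Lpl, stood at 150 RPKM in SKPs and 321 RPKM in fibroblasts, and the other 9 adipocyte markers summed to 385 RPKM in SKPs and 24.2 RPKM in fibroblasts. Smooth muscle markers went the other way, at 97.6 RPKM in SKPs and 3228 RPKM in fibroblasts over 8 genes.

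All 10 KLF genes were expressed in both libraries, where expressed means at least 1 RPKM and 20 reads in either library. Between them they took 10720 reads in the SKP library and 12823 in the fibroblast library. Klf10 and Klf2 were higher in SKPs by 2-fold or more, Klf9 was lower by 2-fold or more, and the other 7 lay under 2-fold apart. Among all 12053 expressed genes 12.1% were higher by this rule and 6.41% were lower, 18.5% in all, and 3 of 10 is too few to tell the members from that background. The median absolute log2 ratio was 0.71 over the 10 members and 0.37 over all expressed genes, and the signed medians were -0.11 and -0.01. The members divided evenly in direction, with 5 ratios above equality and 5 below. Each of the 10 counting intervals excluded equality, as did those of 72.1% of expressed genes, and such intervals reflect read depth and not the spread between cultures. In RNA of a whole culture, fewer cells of a type and less RNA per cell cannot be told apart.

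**Figure D1:**
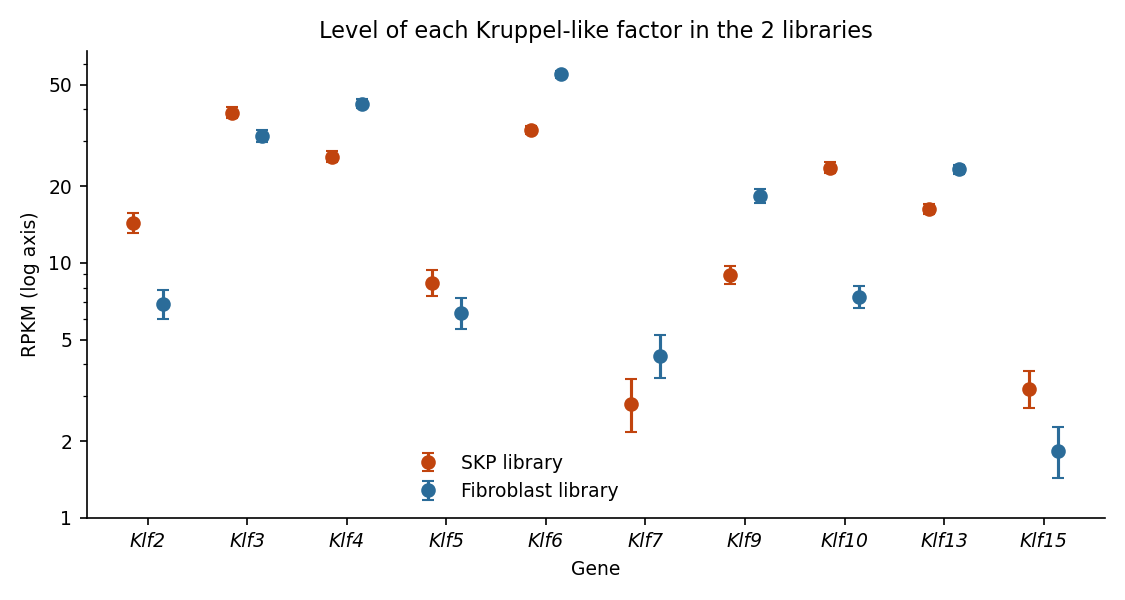
Level of each of the 10 genes as RPKM on a log axis, with the SKP library in red and the fibroblast library in blue. Points are single libraries and bars are 95% exact counting intervals. Klf10 is at 23.6 RPKM in SKPs and 7.35 RPKM in fibroblasts, the widest gap, while Klf6 and Klf4 are the most abundant members in fibroblasts.

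In the SKP library the most abundant member was Klf3, and the order went on with Klf6, Klf4, Klf10, Klf13, Klf2, Klf9, Klf5, Klf15 and Klf7. In the fibroblast library Klf6 came first, followed by Klf4, Klf3, Klf13, Klf9, Klf10, Klf2, Klf5, Klf7 and Klf15. Of 9 neighbouring pairs in each order, 2 could not be separated by counting error in the SKP library, Klf9 with Klf5 and Klf15 with Klf7. In the fibroblast library 2 pairs could not be separated either, Klf10 with Klf2 and Klf2 with Klf5. Levels were compared per length with the gene lengths of the deposited tables, which were 1344 bases for Klf7 and 6396 bases for Klf13. A shortened gene model could therefore shift a gene's place in this order. The ratio between libraries would stay the same only if the missing part held the same share of reads in both, which was not tested. Against all expressed genes, Klf6 stood at percentile 81.3 in SKPs and 89.0 in fibroblasts, and Klf15 at percentile 20.1 and 14.1. Spearman's rho between the libraries was 0.89 across the 10 genes, a description of genes that are not replicates. Reads covered 95.5% of the Klf6 gene length in SKPs and 95.9% in fibroblasts, and 75.5% and 68.7% of Klf15.

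Klf3, the CtBP-dependent repressor, was similar in the libraries. It had 1701 reads and 38.8 RPKM (37.0 to 40.7) in SKPs, against 1336 reads and 31.4 RPKM (29.7 to 33.1) in fibroblasts. The ratio of 1.24 (1.15 to 1.33) lay under 2-fold. Its corepressor genes lay close together too, with Ctbp1 at 74.8 RPKM in SKPs and 74.9 RPKM in fibroblasts. Since Klf6 was lower in the SKP library, the order of these members turned. The level of Klf3 was 1.17 times that of Klf6 (1.10 to 1.24) in SKPs and 0.572 times that of Klf6 (0.538 to 0.609) in fibroblasts, a ratio within a library that does not depend on how the libraries are scaled.

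Among the activators, Klf2 was higher in the SKP library and Klf4, Klf6 and Klf7 leaned the other way. Klf2, which keeps T cells and endothelium quiescent and is induced by shear stress, had 493 reads and 14.3 RPKM in SKPs, against 230 reads and 6.88 RPKM in fibroblasts. The ratio was 2.08 (1.78 to 2.45), just past the 2-fold limit. With 1 added to each RPKM it was 1.94, short of 2-fold, so this call depends on the scale. Of 10 endothelial markers, a cell type in which Klf2 is abundant, 2 were expressed and 1 of them was higher in SKPs, the cadherin gene Cdh5, at 3.57 RPKM against 0.787 in fibroblasts. Flt1, a receptor for VEGF, stood at 3.94 RPKM in SKPs and 3.03 RPKM in fibroblasts. Among the markers below the expression filter, Kdr (34 reads in SKPs, 55 in fibroblasts) and Vwf (34 and 75) leaned to fibroblasts. Pecam1, Tek and Erg leaned to SKPs. Tie1, Emcn and Cldn5 had at most 4 reads in a library, though none of the 10 was at 0 in either. The part of endothelial cells in the Klf2 difference was not tested.

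Klf4, the closest relative of Klf2 among the members and a regulator of the epidermal barrier and of reprogramming, had 1510 reads and 26.1 RPKM in SKPs, against 2369 reads and 42.1 RPKM in fibroblasts. It was 1.62-fold lower in SKPs (1.51 to 1.72). Klf4 therefore exceeded Klf2 by 1.82 times (1.64 to 2.02) in SKPs and by 6.12 times (5.34 to 7.04) in fibroblasts. Keratinocyte markers, among them Krt14 at 13.4 RPKM in SKPs and 0.970 RPKM in fibroblasts, lay on the other side from Klf4, with 6 of 6 expressed markers higher in the SKP library and Krt1 and Ivl at 0 reads in fibroblasts. Klf5, a growth-promoting factor of basal epithelium and smooth muscle, had 273 reads and 8.34 RPKM in SKPs, against 202 reads and 6.35 RPKM in fibroblasts, a ratio of 1.31 (1.09 to 1.58). The Klf5 ratio lay on the same side as the keratinocyte markers, and opposite to the smooth muscle markers, whose part was not tested.

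Klf6 and Klf7, which are near relatives of each other, were lower in SKPs by like amounts at very different levels. Klf6, an early response factor of wounded tissue that activates TGF-beta and matrix genes, had 2648 reads and 33.1 RPKM in SKPs, against 4253 reads and 54.8 RPKM in fibroblasts, 1.65-fold lower (1.57 to 1.74). Klf7, a factor of neuronal differentiation and axon growth, had 71 reads and 2.79 RPKM in SKPs, against 107 reads and 4.33 RPKM in fibroblasts, 1.55-fold lower (1.14 to 2.12). The Klf7 interval includes 2-fold and reflects its low count. Klf6 exceeded Klf7 by 11.9 times (9.39 to 15.3) in SKPs and by 12.7 times (10.5 to 15.5) in fibroblasts, intervals that overlap.

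The Sin3a-binding members gave the widest contrast. Klf10, which is induced by TGF-beta and represses the TGF-beta inhibitor Smad7, had 1364 reads and 23.6 RPKM (22.4 to 24.9) in SKPs, against 412 reads and 7.35 RPKM (6.66 to 8.10) in fibroblasts. It was 3.22-fold higher in SKPs (2.88 to 3.60), and 10.02% of expressed genes had a larger absolute log2 ratio. Klf9, a target of glucocorticoid and thyroid hormone, had 555 reads and 8.98 RPKM (8.24 to 9.75) in SKPs, against 1099 reads and 18.3 RPKM (17.2 to 19.4) in fibroblasts. It was 2.04-fold lower in SKPs (1.84 to 2.26), just past the limit, and with 1 added to each RPKM its ratio was 0.517, short of 2-fold. Klf13, a factor of T cell chemokine expression and heart development, had 1966 reads and 16.2 RPKM in SKPs, against 2738 reads and 23.3 RPKM in fibroblasts, 1.43-fold lower (1.35 to 1.52).

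These opposite ratios turned the order within the group. Klf10 stood at 2.63 times the level of Klf9 (2.38 to 2.91) in SKPs and at 0.402 times that level (0.358 to 0.45) in fibroblasts. Against Klf13 the same quantity was 1.46 (1.36 to 1.56) in SKPs and 0.316 (0.284 to 0.351) in fibroblasts. The sum of the 3 genes was nevertheless 48.8 RPKM in SKPs and 48.9 RPKM in fibroblasts, a ratio of 0.999.

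Klf15, a glucocorticoid-induced factor of amino acid and glucose metabolism in muscle, liver and fat, was among the 2 lowest members in both libraries. It had 139 reads and 3.20 RPKM (2.69 to 3.78) in SKPs, against 77 reads and 1.82 RPKM (1.44 to 2.28) in fibroblasts. The ratio of 1.75 (1.32 to 2.35) fell just short of 2-fold with an interval that includes it. The adipocyte markers lay on the same side, with 9 of 10 higher in the SKP library and 1 lower, Lpl, with Lep and Retn at 0 reads in fibroblasts, and Fabp4 at 243 RPKM in SKPs against 22.6 in fibroblasts. Their part in the Klf15 level was not tested. The glucose transporter gene Slc2a4, reported as a target of Klf15, stood at 3.63 RPKM in SKPs and 0.693 RPKM in fibroblasts. It is itself one of the 9 higher adipocyte markers, so it adds no separate evidence.

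**Figure D2:**
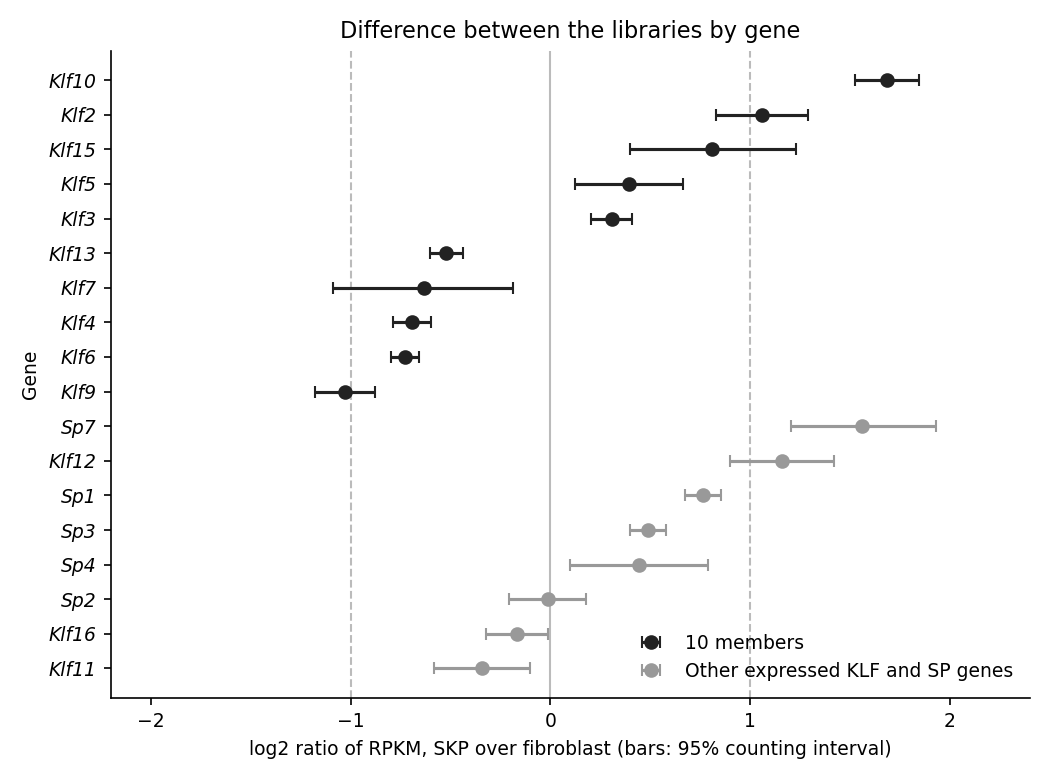
log2 ratio of RPKM, SKP over fibroblast, for the 10 members (black) and the 8 other expressed KLF and SP genes (grey), with bars for the 95% counting interval. Dashed lines mark 2-fold either way. Klf10 at 1.69 lies past the limit with its whole interval, while Klf2 at 1.06 and Klf9 at -1.03 sit on it.

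Summed over the 10 genes, KLF RNA came to 175 RPKM in SKPs and 197 RPKM in fibroblasts, so the total was 1.12 times higher in fibroblasts while its make-up differed. The 5 activators held 48.2% of the sum in SKPs and 58.2% in fibroblasts, Klf3 22.1% and 16.0%, the Sin3a-binding members 27.8% and 24.9%, and Klf15 1.82% and 0.928%. The single largest shifts were in Klf10, with 13.5% of the sum in SKPs and 3.74% in fibroblasts, and Klf6, with 18.9% and 27.9%.

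**Figure D3:**
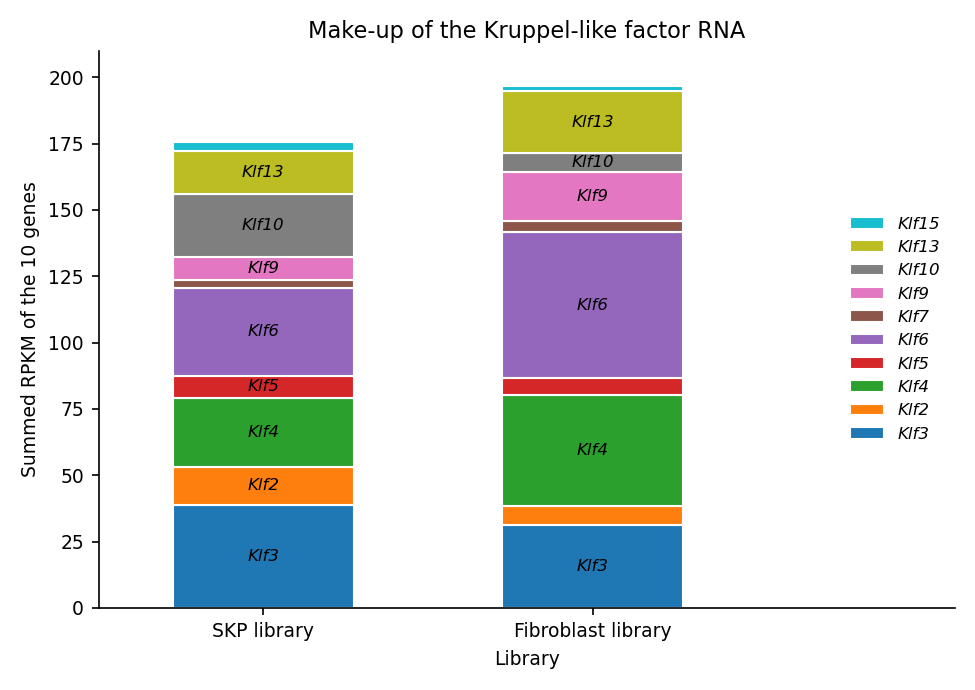
Summed RPKM of the 10 genes, stacked by gene, with the SKP library on the left and the fibroblast library on the right. The bars reach 175 and 197 RPKM, and the Klf10 and Klf2 segments are taller in the SKP library while those of Klf6, Klf4 and Klf9 are taller in the fibroblast library.

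Members can also be set out by what they are known to do to fat cell differentiation, which Klf4, Klf5, Klf6, Klf9, Klf15 and, in pig cells, Klf13 promote, and which Klf2, Klf3 and Klf7 restrain. Klf10, the member with the widest difference, was not assigned to either group and enters neither sum. The 6 promoting genes summed to 95.9 RPKM in SKPs and 147 RPKM in fibroblasts, a ratio of 0.654, and 2 of the 6 had a ratio above equality. Klf6 and Klf4 were the largest parts of this sum, at 33.1 and 26.1 RPKM in SKPs and 54.8 and 42.1 RPKM in fibroblasts. Both lay under 2-fold apart. The 3 restraining genes summed to 55.9 RPKM in SKPs and 42.6 RPKM in fibroblasts, a ratio of 1.31. Of these 3, Klf2 and Klf3 had a ratio above equality and Klf7 one below it, and Klf3 alone made up 38.8 RPKM of the sum in SKPs. Of 12 expressed adipogenic regulators 3 were higher in SKPs and 1 lower, with a median log2 ratio of 0.57. The higher ones were Dlk1, an inhibitor of adipogenesis that Klf6 is reported to repress, at 196 RPKM in SKPs and 1.85 RPKM in fibroblasts, the preadipocyte factor gene Zfp423 (6.64 and 0.177 RPKM) and Cebpa, a late adipogenic factor that Klf3 is reported to repress (24.0 and 7.93 RPKM). Gata2 was the lower one (0.551 and 1.23 RPKM), and Cebpb, an early factor that Klf4 activates, stood at 62.2 RPKM in SKPs and 92.2 RPKM in fibroblasts.

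The remaining family genes give the setting of the 10. Of 17 other KLF and SP genes looked for, 14 had a read and 8 were expressed, of which 2 were higher in SKPs and 0 lower. Klf12, a CtBP-binding repressor like Klf3, stood at 3.76 RPKM in SKPs and 1.68 RPKM in fibroblasts (2.23-fold higher, 1.87 to 2.68). Sp7, the osteoblast factor osterix, stood at 6.03 RPKM in SKPs and 2.05 RPKM in fibroblasts (2.95-fold higher, 2.30 to 3.81). Sp1 and Sp3, which are widely expressed and bind the same GC boxes, stood at 18.9 and 32.4 RPKM in SKPs, against 11.1 and 23.1 RPKM in fibroblasts. Klf16 (13.1 RPKM in SKPs, 14.7 in fibroblasts), Klf11 (3.49 and 4.42 RPKM), Sp2 (7.77 and 7.84 RPKM) and Sp4 (1.57 and 1.16 RPKM) were under 2-fold apart. Klf14 had 18 reads in SKPs and 0 in fibroblasts and lay below the expression filter. It was at least 5.83-fold higher against 3 reads in fibroblasts, the limit that a count of 0 allows in a library. That floor takes the 18 SKP reads as exact, and with their counting error included the lower limit was 4.27-fold. Klf1, Klf8, Sp5, Sp6 and Sp9 also lay below it, with 5, 17, 1, 9 and 19 reads in SKPs, against 2, 43, 2, 8 and 5 in fibroblasts. The 10 members made up 89.3% of all KLF RNA by RPKM in SKPs and 90.2% in fibroblasts.

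Cofactors through which the family acts differed little. Of 16 corepressor and coactivator genes 0 were higher in SKPs and 1 was lower, the Sin3 complex gene Sap30, at 2.59 RPKM in SKPs and 5.19 RPKM in fibroblasts. Their median log2 ratio was -0.05, beside -0.01 over all expressed genes. Sap30 was 2.01-fold lower (1.45 to 2.80), just past the limit, from 58 reads in SKPs and 113 in fibroblasts. Of 10 ubiquitin ligases, several of which degrade KLF proteins, 0 were higher and 1 was lower, the muscle atrophy ligase gene Fbxo32, at 1.22 RPKM in SKPs and 5.32 RPKM in fibroblasts. Of 7 expressed genes of the MEK5-ERK5-MEF2 cascade, which induces Klf2 and Klf4, none was 2-fold apart. Their median log2 ratio was 0.69, with the kinase gene Map3k3 at 28.4 RPKM in SKPs and 17.1 RPKM in fibroblasts and Mef2d at 24.1 and 31.9 RPKM. Mef2d was the only expressed gene of this list with a ratio below equality. Mef2c came closest to the limit, at 1.94-fold higher in SKPs (1.71 to 2.19), an interval that includes 2-fold.

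The TGF-beta pathway, which induces Klf10, held differences both ways. Of 12 genes 3 were higher in SKPs and 1 was lower, with a median log2 ratio of 0.06. Higher were the ligand gene Tgfb1 (174 RPKM in SKPs, 75.6 in fibroblasts), the receptor gene Tgfbr1 (28.7 and 9.35 RPKM) and the signal transducer gene Smad3 (40.2 and 10.5 RPKM). The lower one was the ligand gene Tgfb3 (15.4 and 58.4 RPKM). Smad7, which Klf10 represses, stood at 6.33 RPKM in SKPs and 8.99 RPKM in fibroblasts, under 2-fold apart. Smad7 was chosen for naming after its values were seen.

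The glucocorticoid response list held genes that the hormone induces together with its receptor gene Nr3c1. Of its 13 expressed genes 8 were higher in SKPs and 1, the phosphatase gene Dusp1, was lower, with a median log2 ratio of 1.23. Dusp1 was 2.01-fold lower (1.80 to 2.25), just past the limit. Without the receptor genes 7 of 12 were higher. The 4 that were neither, named after their values were seen, include the widely used response genes Tsc22d3 (14.3 RPKM in SKPs, 16.3 in fibroblasts) and Sgk1 (29.2 and 28.9 RPKM), beside Cebpd (19.7 and 23.9 RPKM) and Ddit4 (23.8 and 46.8 RPKM). Among the expressed genes the 4 with the largest ratio were Hsd11b1, which regenerates active glucocorticoid (7.32-fold, 4.09 to 14.2), the EGF receptor inhibitor gene Errfi1 (4.69-fold, 4.27 to 5.16), the metallothionein gene Mt2 (3.72-fold, 3.48 to 3.98) and Fkbp5, a chaperone of the glucocorticoid receptor (2.74-fold, 2.52 to 2.99). Below the expression filter lay Zbtb16, with 34 reads in SKPs and 1 in fibroblasts, and Nr3c2, with 29 and 21. The receptor gene Nr3c1 and the clock gene Per1, named after their values were seen, stood at 25.9 and 15.9 RPKM in SKPs, against 11.0 and 6.99 RPKM in fibroblasts. Several of these genes also answer to growth factors or metals. Klf15, also induced by glucocorticoids, had a ratio above equality and Klf9 one below it, and whether either difference follows the hormone was not tested.

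Immediate-early genes divided in direction. Of 17 expressed members 6 were higher in SKPs and 2 were lower, with a median log2 ratio of -0.03. The growth factor response genes Egr2 (35.9 RPKM in SKPs, 0.914 in fibroblasts), Egr3 (9.95 and 0.499 RPKM), Egr1 (94.3 and 17.3 RPKM) and Jun (67.9 and 16.9 RPKM) were higher, and the nuclear receptor gene Nr4a1 was lower (6.96 and 28.7 RPKM). Of the rapidly induced KLF genes Klf10 and Klf2 lay on the side of the Egr genes and Klf4 and Klf6, both under 2-fold apart, on the side of Nr4a1. As the list held genes on both sides, any KLF ratio would share a side with some of them. Whether these KLF genes vary together with either set was not tested.

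Of 17 expressed genes reported elsewhere as targets of single members, 9 were higher in SKPs, 2 lower and 6 under the limit either way. Among all expressed genes, the background for each list count above, 12.1% were higher and 6.41% lower. This list shares Tgfb1, Tgfbr1 and Smad7 with the TGF-beta list, Slc2a4 with the adipocyte markers and Tagln with the smooth muscle markers. Its counts are therefore not separate from theirs. The median log2 ratio of the 17 was 1.10. The smooth muscle gene Tagln, which Klf4 represses and Klf5 activates, stood at 9.15 RPKM in SKPs and 585 RPKM in fibroblasts, while Klf4 and Klf5 were both under 2-fold apart. The urokinase gene Plau, a target of Klf6, stood at 421 RPKM in SKPs and 14.7 RPKM in fibroblasts, while Klf6 was 1.65-fold lower in SKPs. The chemokine gene Ccl5, a target of Klf13 in T cells, stood at 3.65 RPKM in SKPs and 1.03 RPKM in fibroblasts, from 40 and 11 reads. The 3 expressed leukocyte markers were higher in SKPs, while the T cell gene Cd3e had no read in either library. The part of leukocytes in the Ccl5 level was not tested.

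**Figure D4:**
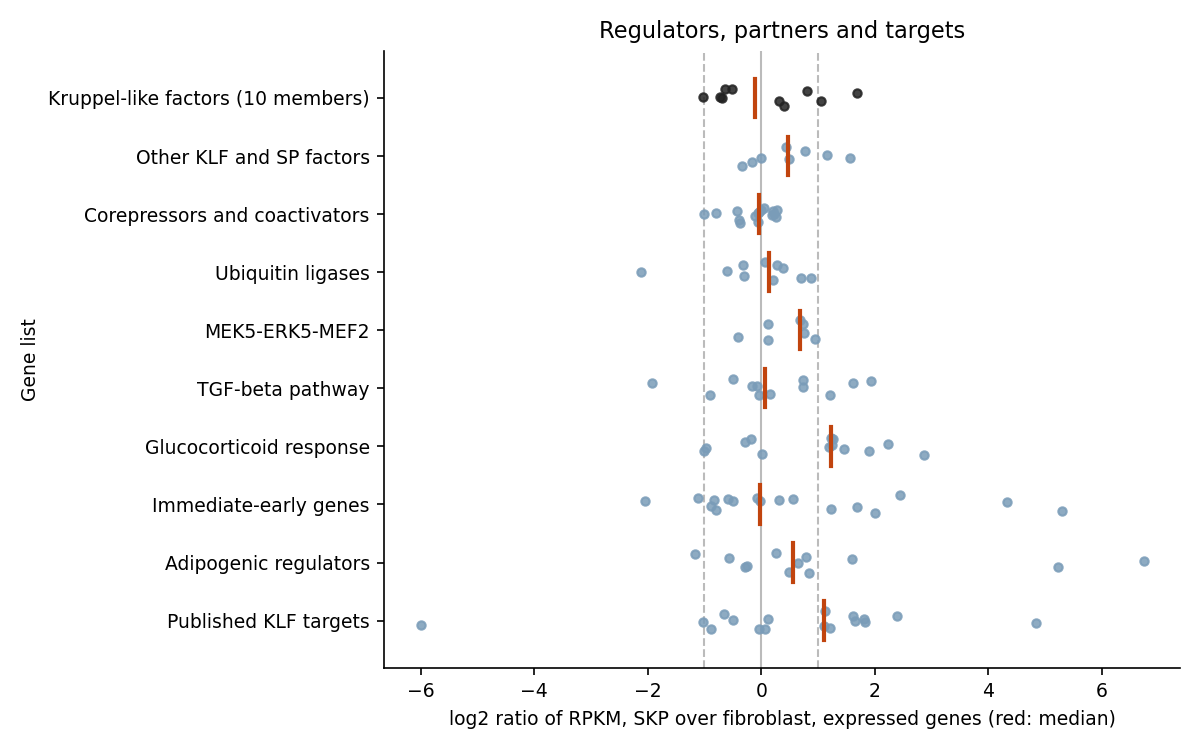
log2 ratio of RPKM, SKP over fibroblast, for every expressed gene of 10 lists, with the list median in red, solid and dashed lines at equality and at 2-fold, and points spread vertically at random. The corepressors and coactivators spread least, with a median absolute log2 ratio of 0.21, and the glucocorticoid response and published target lists have medians of 1.23 and 1.10.

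Few stretches of the length of a read were shared between family members. In GENCODE M21 transcripts, 0 stretches of 49 bases of Klf2, Klf4, Klf5, Klf6, Klf7, Klf9, Klf10, Klf13 and Klf15 matched another KLF or SP gene with at most 2 mismatches, and 6 of the 11426 stretches of Klf3 matched Klf12. More was shared with antisense genes, and whether reads were counted by strand is not stated in the labels or file headers. Of the 8128 stretches in annotated Klf7 transcripts, 38.3% also lie in the antisense long non-coding gene Gm26649, and 3.54% of those of Klf3 lie in transcripts of other genes, foremost the antisense gene Gm20033. For the other 8 members the share found exactly in transcripts of another gene was at most 0.295%, that of Klf4. The deposited Klf7 model of 1344 bases is shorter than the annotated transcripts, so how much of the antisense overlap it holds was not tested.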

How the data were processed

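RNA of 2 mouse dermal cultures was sequenced, 1 library each of SKPs and fibroblasts, grouped by the cell type in their labels. Poly(A) RNA was selected on oligo(dT) beads, per the labels' protocols. The deposited counts are whole reads per gene with no normalization, and the file headers call them unique reads. The deposited RPKM values scale them by gene length and by the reads counted in genes. The deposited percent values are mapped shares of reads (85.13% for SKPs and 81.65% for fibroblasts) and the share of a gene under reads. The counted reads exceed the reads with a single match, so how reads at several positions were counted is unknown. The authors' table gives a log2 ratio of fibroblast over SKP and p-values whose test is not named, and it was used only to check ratios. The submitters' processing notes name build mm9. The aligner, annotation and strand use were not given in the sources used here. Promoters are of GRCm38.p6.

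The RPKM ratio and its Clopper-Pearson interval were computed in Python 3.11.15 with scipy 1.17.1, pandas 2.3.3 and numpy 2.4.6, and the procedure was tested on simulated data. A gene was called at 2-fold with an interval excluding equality, if expressed at 1 RPKM and 20 reads. The members, lists, filters and alternatives were chosen with earlier results of these data known. All 10 members and other family genes with a read are named. The rule for each other list gave up to 4 called genes by ratio and 2 by level, not all of which are printed. Genes named outside this rule were chosen after their values were seen. No count model or leave-one-out was possible with 1 library per group. An item of these lists is not reported here.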

Additional observations from a re-analysis of the deposited data

How the results depend on the processing

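No paired analysis was possible because each group has 1 library. Klf10 was called under all 6 alternatives, in the same direction. Klf2 and Klf9 were called under both other library scalings, without the filter on low values and at RPKM of 5 or more, but not on the log2(RPKM + 1) scale, where the count of members was 1 higher and 0 lower. At 1.5-fold 3 members were higher (Klf15 joining) and 4 were lower (Klf4, Klf6 and Klf7 joining). Scaling by the median of ratios moved every log2 ratio by 0.01 and scaling by the upper quartile by -0.05, and no member changed direction. Over all expressed genes the counts higher and lower were 1455 and 772, against 2197 and 1085 without the filter, 828 and 478 at RPKM of 5 or more, 2255 and 1716 at 1.5-fold, and 1098 and 508 on the log2(RPKM + 1) scale. The summed KLF RPKM ratio was 0.893, 0.899 with the median of ratios and 0.865 with the upper quartile. Counts limit Klf2 and Klf9, called, and Klf7 and Klf15, not called, whose intervals all include 2-fold. The spread between cultures is unknown.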

Other observations

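Klf4 is known for its use with Pou5f1, Sox2 and Myc in reprogramming, and these partners were weak or divided in both libraries. Pou5f1 and Lin28a had no read in either library, where a count of 0 allows up to 3 reads. Sox2 stood at 1.83 RPKM in SKPs and 0.818 RPKM in fibroblasts (2.23-fold higher, 1.5001 to 3.38). Myc stood at 8.93 RPKM in SKPs and 23.7 RPKM in fibroblasts (2.66-fold lower, 2.37 to 2.99), on the same side as Klf4. Tbx3 stood at 2.56 RPKM in SKPs and 1.62 RPKM in fibroblasts, under 2-fold apart, and Nanog had 5 reads in each library.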
